A study of Rattus norvegicus with 12 samples.

Results

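*Acta1* and *Actc1*, the genes of skeletal and cardiac α-actin, were followed across all 12 RNA-seq libraries of neonatal rat ventricular myocytes (NRVM). They are 2 of the 15920 genes in the deposited table, listed there as ENSRNOG00000017786 and ENSRNOG00000008536. The table carries no symbols, so the genes were chosen by these identifiers, on condition that each averaged at least 1000 normalized counts. Both met it, with means over the 12 libraries of 21378 for *Acta1* and 327070 for *Actc1*. No measurement in the table bears on the symbols beyond this abundance. NRVM were taken from hearts of Sprague Dawley pups 2 to 3 days old, and all groups shared a preplating step, 24 h of BrdU to remove and arrest other cells, 48 h in serum and 48 h without it. The 4 groups, of 3 libraries each, were baseline (vehicle), PE at 100 µM, PE at 100 µM with THZ1 at 10 nM, and THZ1 at 10 nM alone, each for 48 h by the labels. Per the study's methods, vehicle or inhibitor was added ahead of PE. The table's names for the 6 libraries with PE give 24 h. PE (phenylephrine) is an α1-adrenergic agonist that makes cardiomyocytes grow, and THZ1 is a covalent inhibitor of CDK7, CDK12 and CDK13, kinases that phosphorylate RNA polymerase II. Nothing in the labels says whether libraries of a group came from separate cell isolations, so the spread between libraries, on which p-values rest, may be technical.

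Sarcomeric α-actin is the backbone of the thin filament, along which myosin pulls when a heart muscle cell contracts. Mammals carry a gene for the cardiac form, *Actc1*, and a gene for the skeletal form, *Acta1*. In rodents *Actc1* dominates in the adult heart, while *Acta1* is expressed around birth and taken up again when the heart hypertrophies. A rise of *Acta1* is therefore a classical marker of the fetal gene program in cultured myocytes given α1-adrenergic agonists. Both genes are known targets of serum response factor (SRF), which binds CArG boxes.

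As background, the sequence next to each gene's start is shown, from RefSeq on the GRCr8 build, read 5′ to 3′ on the gene's strand (minus for both). The windows span 250 bases before to 50 after the annotated start. The stretch of *Acta1* is chr19:68784195-68784314, the last 120 bases before the start, and that of *Actc1* is chr3:121271816-121271947, the last 120 bases before it and the first 12 after it. Capitals mark the motifs found: the CArG box in both, and in *Acta1* also CATTCC (the MCAT element bound by TEAD factors), GGGCGG (a GC box) and TATAAA (the core of a TATA box).
Acta1: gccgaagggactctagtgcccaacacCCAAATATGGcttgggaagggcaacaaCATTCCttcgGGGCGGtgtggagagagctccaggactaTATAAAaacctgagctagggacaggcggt
Actc1: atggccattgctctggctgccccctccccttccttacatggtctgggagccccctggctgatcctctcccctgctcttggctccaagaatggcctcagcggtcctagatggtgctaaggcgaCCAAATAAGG

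The CArG box of *Acta1*, CCAAATATGG, lies at bases -94 to -85 from the start, followed by CATTCC at -67 to -62, GGGCGG at -57 to -52 and TATAAA at -29 to -24. A further GGGCGG lies at -145 to -140, outside the stretch shown. In *Actc1* the CArG box CCAAATAAGG lies at bases 3 to 12 after the annotated start, and the other motifs were not matched in the window. Bases further than 50 after that start were not searched. Whether the annotated start is the one used in these cells was not tested. Searched on both strands, a CArG box was found in 1.64% of the 33469 promoter windows in the table, CATTCC in 14.2%, TATAAA in 14.2% and GGGCGG in 33.1%. None of the matches overlapped. A match describes letters in the window and was not tested as a binding site. Whether the motifs have any part in the changes of either actin was not tested.

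Recovered reads ranged from 30458862 to 45885754 per library, with a median of 35381326. Between 6013 and 51542 of them were *Acta1* reads and between 134137 and 667546 were *Actc1* reads, for which counting error alone gives a coefficient of variation of at most 1.29% and 0.273%. After the authors' scaling, summed normalized counts were 38.0 ± 1.92 M (SD, n = 3) at baseline, 40.4 ± 0.131 M with PE, 33.8 ± 0.587 M with PE + THZ1 and 34.2 ± 0.470 M with THZ1 alone. Baseline replicate 2 stood apart from its group, with a chi-square per degree of freedom over genes of 48.3 and 51.9 against the other two, where other pairs within a group had 1.99 to 8.09. Results that use the baseline group are therefore also given without it. RNA was taken from whole cultures, in which fewer cells of a type and less RNA per cell cannot be told apart. The purity of the myocytes was not checked against marker genes, since 0 identifiers of the table were matched to a symbol. The α-actin genes are related, so some short reads may match both. Their transcript sequences were not compared, and how far shared reads shaped either count was not tested.

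PE raised both actins, and with THZ1 both stood below baseline whether or not PE was present. All levels are normalized counts, relative to the other transcripts of a library, and give no amount per cell. Between groups, the estimated changes were larger for *Acta1* than for *Actc1*, a difference that is tested through the ratio of the pair. That ratio overlapped between PE + THZ1 and baseline. The difference in the effect of PE with and without THZ1 was larger for *Actc1*. In *Acta1*, normalized counts at baseline were 17223, 22687 and 15430.2 in replicates 1, 2 and 3 (mean 18447 ± 3780, SD, n = 3). With PE they were 49015, 48599 and 50510.4 (mean 49375 ± 1005), and with PE + THZ1 they were 9804, 10755 and 12254 (mean 10938 ± 1235). With THZ1 alone they were 6853, 6696 and 6705 (mean 6751 ± 87.9). The highest library therefore held 7.54 times the lowest, and the 4 groups did not overlap. Taken by pairs of groups, 21.8% to 36.6% of tested genes had no overlap in the same direction. The share of genes in which all 4 groups stood apart was not counted. The order was PE, baseline, PE + THZ1 and THZ1 alone, and every pair of neighbours was called different by the limma tests below. Those tests use 1 spread shared by the 4 groups and drawn towards that of other genes, not the spread of each pair. The groups' own spreads were unequal. The coefficient of variation of *Acta1* was 20.5% at baseline, 2.04% with PE, 11.3% with PE + THZ1 and 1.30% with THZ1 alone. Baseline replicate 2 was the highest of its group and still less than the lowest PE library.

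*Actc1*, the main sarcomeric actin of the rodent heart, kept the same order of groups. Its normalized counts at baseline were 267148, 334907 and 281396 (mean 294484 ± 35725, SD, n = 3). With PE they were 705339, 659289 and 654185 (mean 672938 ± 28176). With PE + THZ1 they were 173955, 186904 and 202652 (mean 187837 ± 14371), and with THZ1 alone 152866, 151027 and 155167 (mean 153020 ± 2074). As in *Acta1*, no library of one group reached into another, again without a share over all genes for the 4 groups. The highest library was 4.67 times the lowest. Again baseline replicate 2 was the highest of its group. *Actc1* was among the genes with most reads, not counted per length. It took 0.780% ± 0.136 of the counted reads at baseline, 1.67% ± 0.0643 with PE, 0.556% ± 0.0342 with PE + THZ1 and 0.448% ± 0.00782 with THZ1 alone. At most 2 genes had more reads in any PE library, and 14 to 15 genes did with THZ1 alone. *Acta1* took 0.0490% ± 0.0127, 0.122% ± 0.00267, 0.0324% ± 0.00314 and 0.0197% ± 5.3e-05 of the reads in the same order.

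**Figure D1:**
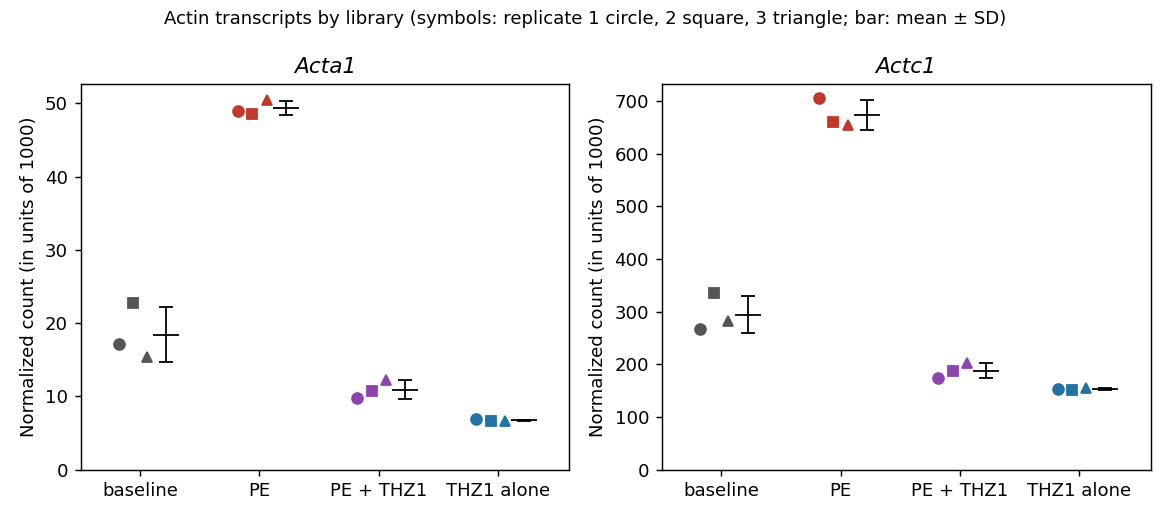
Normalized counts (in units of 1000, linear axis from 0) of *Acta1* and *Actc1* in each of the 12 libraries, by group, with each group's mean and SD (n = 3) as a bar beside its points. In both genes the PE libraries lie above all others, at 48599 to 50510.4 for *Acta1* and 654185 to 705339 for *Actc1*, and the THZ1 alone libraries lie lowest.

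The comparison of PE with baseline asks how the actins answered the hypertrophic agonist. *Acta1* was 2.71-fold higher with PE, with a 95% confidence interval of 2.35 to 3.13 (log2 change 1.44, standard error 0.10, adjusted p = 2.1e-09, limma). *Actc1* was 2.29-fold higher, with an interval of 2.04 to 2.58 (log2 change 1.20, standard error 0.08, adjusted p = 1.4e-09, limma). Both members rose, in a comparison in which 30.1% of the 14312 genes tested were called higher and 30.8% had PE libraries all above the baseline libraries, so a call alone does not set the actins apart. By size they lay near the upper end, with 131 tested genes rising more than *Acta1* and 206 more than *Actc1*, against a median log2 change of 0.02 over all genes. Among the 5677 genes with a mean of at least 1000, 27 rose more than *Acta1* and 50 more than *Actc1*. Without baseline replicate 2 the log2 changes were 1.60 and 1.29 (adjusted p = 8.7e-15 and 2.5e-13, limma). The size of these p-values depends on how the spread is modelled. With all libraries but no trend in the prior variance, they were 9.6e-06 for *Acta1* and 2.6e-06 for *Actc1* (adjusted, limma).

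THZ1 given with PE asks how far the response is held back. *Acta1* fell 4.53-fold from PE to PE + THZ1, with an interval of 3.92 to 5.24 (log2 change -2.18, standard error 0.10, adjusted p = 4.4e-12, limma). *Actc1* fell 3.59-fold, with an interval of 3.19 to 4.03 (log2 change -1.84, standard error 0.08, adjusted p = 2.5e-12, limma). In this comparison 31.3% of tested genes were called lower and 35.0% had PE + THZ1 libraries all below the PE libraries. Among genes with a mean of at least 1000, 23 fell more than *Acta1* and 51 more than *Actc1*. Both drops were larger than the rises with PE, and so both actins ended below their baseline level. Against baseline, PE + THZ1 left *Acta1* at 0.598 of its level (interval 0.518 to 0.691, log2 change -0.74, adjusted p = 7.4e-06, limma) and *Actc1* at 0.640 (interval 0.569 to 0.719, log2 change -0.64, adjusted p = 3.1e-06, limma). Of all genes tested, 27.4% were called lower in that comparison, and 28.5% had no overlap in this direction. Without baseline replicate 2 the log2 changes against baseline were -0.58 and -0.55 (adjusted p = 7.6e-08 and 1.9e-07, limma).

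In cells without PE, THZ1 lowered both transcripts as well. *Acta1* stood 2.70-fold lower with THZ1 alone than at baseline, with an interval of 2.33 to 3.11 (log2 change -1.43, standard error 0.10, adjusted p = 2.8e-09, limma). *Actc1* stood 1.92-fold lower, with an interval of 1.71 to 2.15 (log2 change -0.94, standard error 0.08, adjusted p = 3.7e-08, limma). Here 26.1% of tested genes were called lower and 27.6% had no overlap in this direction. *Acta1* lay further out than *Actc1*, as 198 tested genes fell more than the former and 590 more than the latter. Without baseline replicate 2 the log2 changes were -1.27 and -0.84 (adjusted p = 5.3e-13 and 3.9e-10, limma).

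A rise with PE remained under THZ1, smaller than without it. From THZ1 alone to PE + THZ1, *Acta1* rose 1.61-fold, with an interval of 1.40 to 1.86 (log2 change 0.69, standard error 0.10, adjusted p = 6.5e-05, limma). *Actc1* rose 1.23-fold, with an interval of 1.09 to 1.38 (log2 change 0.29, standard error 0.08, adjusted p = 0.012, limma). The change of *Actc1* is the smallest of either gene between groups, and its call depends on PE + THZ1 replicate 3, the highest of its group. Without that library the log2 change was 0.24 with an adjusted p of 0.070 (limma). Fewer genes were called higher here, 12.6% of those tested, while 21.8% had no overlap in this direction. Among genes with a mean of at least 1000, 55 rose more than *Acta1* and 345 more than *Actc1*.

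The direct test of whether the effect of PE differed with THZ1, the interaction term, was negative for both. In *Acta1* the rise with PE was 1.68-fold smaller under THZ1, with an interval of 1.37 to 2.06 (log2 interaction -0.75, standard error 0.14, adjusted p = 0.00059, limma). In *Actc1* it was 1.87-fold smaller, with an interval of 1.59 to 2.21 (log2 interaction -0.91, standard error 0.11, adjusted p = 1.4e-05, limma). Without baseline replicate 2 the interactions were -0.91 and -1.0 (adjusted p = 2.9e-08 and 9.1e-09, limma). A negative interaction was called for 18.3% of the genes tested. The comparisons share libraries, and their values are given side by side and not as independent evidence. Between the extremes, THZ1 alone against PE, *Acta1* was 7.31-fold lower (log2 change -2.87, adjusted p = 7.8e-14, limma) and *Actc1* 4.40-fold lower (log2 change -2.14, adjusted p = 1.9e-13, limma). In that comparison 33.2% of tested genes were called lower, and 36.6% had no overlap in this direction.

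**Figure D2:**
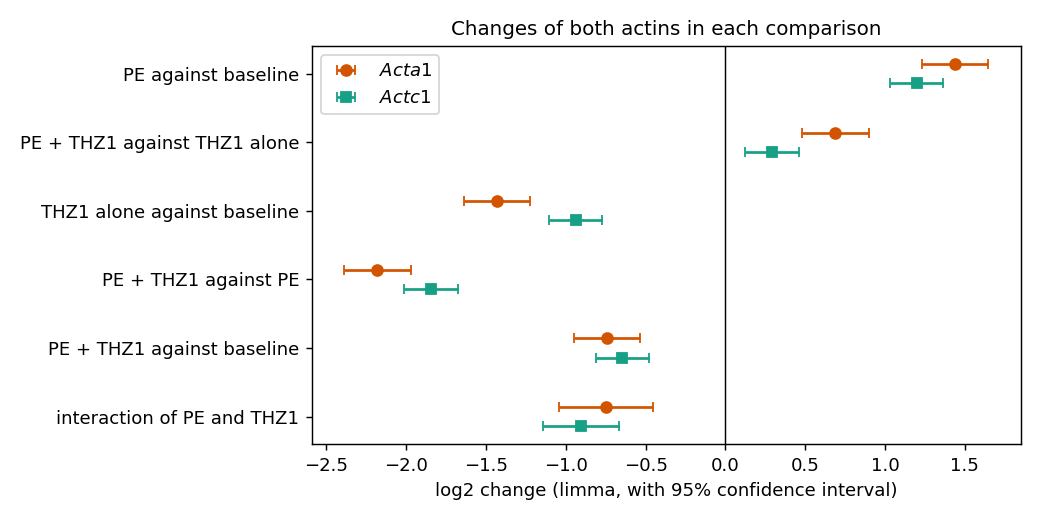
log2 changes of *Acta1* and *Actc1* on the horizontal axis, with 95% confidence intervals from limma, for 5 comparisons of groups and the interaction. Every interval lies clear of 0. The closest to 0 is that of *Actc1* in PE + THZ1 against THZ1 alone, which runs from 0.125 to 0.461 around 0.29.

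**Figure D3:**
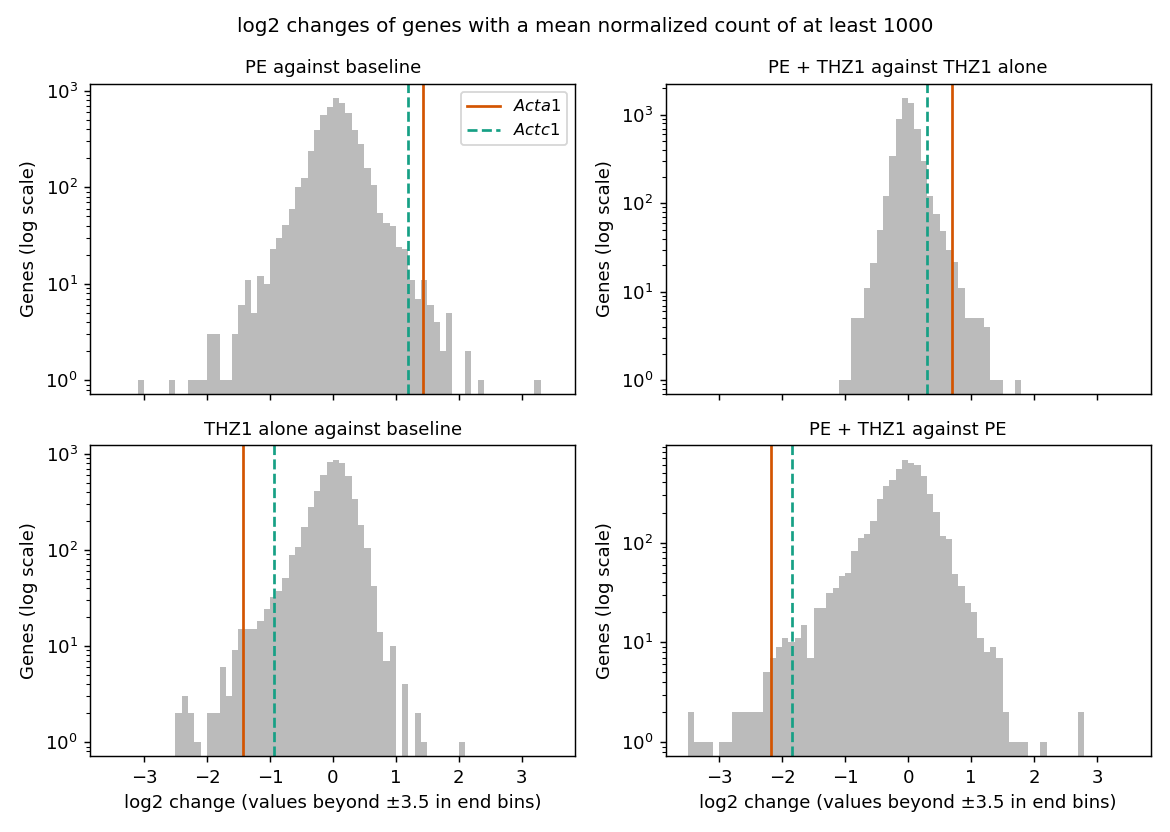
Histograms of log2 changes over the 5677 genes averaging at least 1000 normalized counts in 4 comparisons (number of genes on a log axis, in bins of log2 change), with *Acta1* as a solid and *Actc1* as a dashed line. In each panel *Acta1* lies further from the centre than *Actc1*, at 1.44 against 1.20 with PE and at -2.18 against -1.84 from PE to PE + THZ1.

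The calls over all genes lean with the scaling of the libraries. Of the genes called with PE, 54.5% were higher, and 37.4% were with equal library totals. From PE to PE + THZ1 these shares were 49.3% and 77.2%, with THZ1 alone against baseline 49.7% and 72.5%, with PE + THZ1 against baseline 49.4% and 74.3%, with THZ1 alone against PE 49.3% and 73.3%, and for the interaction 43.2% and 73.2%. Equal totals moved the median log2 change of all genes from 0.0053 to 0.26 from PE to PE + THZ1, from 0.0013 to 0.15 with THZ1 alone against baseline, from 0.0041 to 0.17 with PE + THZ1 against baseline, from 0.0052 to 0.24 with THZ1 alone against PE, and from -0.017 to 0.090 for the interaction. From PE to PE + THZ1 the actins moved with it, to -1.92 for *Acta1* and -1.58 for *Actc1*, and both kept their direction in every comparison.

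The ratio of *Acta1* to *Actc1* shows how the balance of the pair moved, and as a quotient within a library it does not depend on how libraries are scaled. It compares libraries only, since counts were not divided by transcript length and so the ratio is not one of molecules. At baseline it was 0.0645, 0.0677 and 0.0548 in replicates 1, 2 and 3 (mean 0.0623 ± 0.00671, SD, n = 3). With PE it was 0.0695, 0.0737 and 0.0772 (mean 0.0735 ± 0.00387), with PE + THZ1 0.0564, 0.0575 and 0.0605 (mean 0.0581 ± 0.00212), and with THZ1 alone 0.0448, 0.0443 and 0.0432 (mean 0.0441 ± 0.000830). All PE libraries lay above all others and all THZ1 alone libraries below, while baseline and PE + THZ1 overlapped. How many other pairs of genes have ratios that separate in this way was not counted. A read of *Acta1* was matched by 13.0 reads of *Actc1* in the PE library with the highest ratio and by 23.1 in the THZ1 alone library with the lowest.

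PE shifted the balance towards *Acta1*. Over both strata, without and with THZ1, the ratio was 1.25 times higher with PE than without it (log2 difference 0.32), and in each stratum every PE library was above every library without PE. An exact permutation test of libraries within strata, two-sided, gave p = 0.005, the smallest that its 400 permutations can give (also 0.005 after adjustment over the 2 such tests). THZ1 shifted it the other way, to 0.750 of the level without THZ1 (log2 difference -0.42, exact permutation test, two-sided, p = 0.005, adjusted 0.005), and again the libraries did not overlap within either stratum. The share of other gene pairs with such shifts was not counted, so neither is shown to be particular to this pair. Without baseline replicate 2 the log2 differences were 0.35 and -0.38. With each of the 12 libraries left out in turn, the log2 difference with PE ranged from 0.27 to 0.35 and that with THZ1 from -0.46 to -0.38, with an exact permutation p of at most 0.01 and 0.005.

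Between single groups, 3 libraries against 3 cannot give an exact two-sided permutation p under 0.1, so none of the 6 pairwise tests could pass 0.05. The ratio was 1.18 times higher with PE than at baseline (log2 difference 0.24, exact permutation p = 0.1, adjusted over the 6 comparisons 0.12). That difference leaned on baseline replicate 3, the lowest of its group, and was 0.15 without it and 0.30 without replicate 2. From THZ1 alone to PE + THZ1 the ratio rose by 0.40 on the log2 scale, or 1.32 times (exact permutation p = 0.1, adjusted 0.12). It was lower by a log2 difference of -0.34 from PE to PE + THZ1 and of -0.49 from baseline to THZ1 alone (exact permutation p = 0.1 for each, adjusted 0.12), the latter -0.43 without baseline replicate 2. PE + THZ1 and baseline differed by -0.10 (exact permutation p = 0.4, adjusted 0.4), less than the SD of the log2 ratio at baseline, 0.16. Which baseline library is kept decides the size of this difference, as it was -0.033 without replicate 2 (exact permutation p = 0.8) and -0.19 without replicate 3 (exact permutation p = 0.1). From PE to THZ1 alone the log2 difference was -0.73 (exact permutation p = 0.1, adjusted 0.12). The change of the ratio with PE was larger under THZ1 than without it by 0.16 on the log2 scale, a difference that was not tested and that was 0.093 without baseline replicate 2 and 0.25 without replicate 3.

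**Figure D4:**
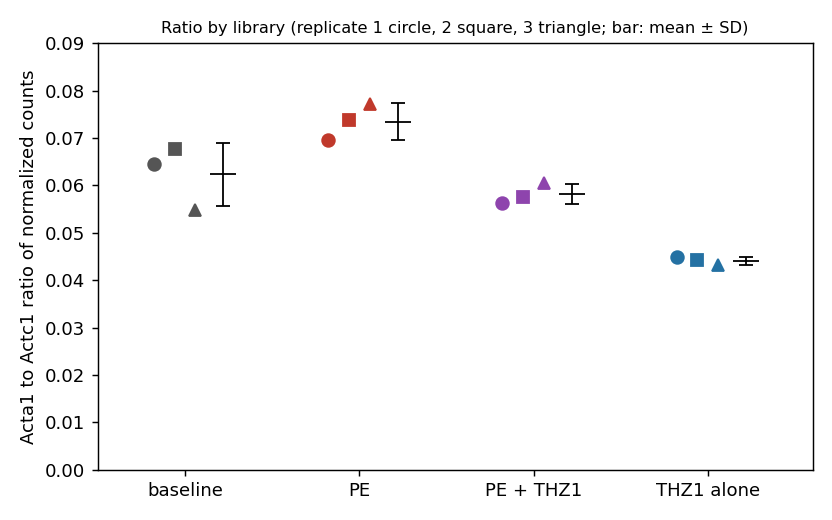
Ratio of *Acta1* to *Actc1* normalized counts in each of the 12 libraries by group (linear axis from 0), with each group's mean and SD (n = 3) as a bar. The PE libraries lie highest, at 0.0695 to 0.0772, those with THZ1 alone lowest, at 0.0432 to 0.0448, and baseline and PE + THZ1 overlap between them.

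The likeness of other genes to the actins was measured by Pearson's r of log2(normalized count + 1) over the 12 libraries, among the 5677 genes with a mean of at least 1000. The points fall into 4 groups and share libraries and scaling, so r describes the pattern over groups and carries no test. *Acta1* and *Actc1* had an r of 0.992 with each other. For *Acta1*, 20 genes had a higher r, led by ENSRNOG00000006937 (r = 0.998), whose normalized counts were 1774 ± 679 (SD, n = 3) at baseline, 8453 ± 1171 with PE, 690 ± 126 with PE + THZ1 and 342 ± 19.6 with THZ1 alone. For *Actc1*, 32 genes had a higher r, led by ENSRNOG00000014479 (r = 0.998), with 3646 ± 147, 5352 ± 115, 2938 ± 158 and 2620 ± 56.8 in the same order of groups. The identifiers are not paired with symbols in the tables used here, and so the remaining 4 of the 5 closest genes of each actin are not named. Their r was at least 0.996 and 0.997. An r above 0.95 was reached by 379 genes with *Acta1* and 433 with *Actc1*, while the median r over all these genes was 0.10 and 0.11. Both actins belong to the same 1 of the 6 clusters that the authors formed from these libraries, which holds 3740 genes or 23.5% of the table.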

How the data were processed

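The deposited table holds a signal per gene and library, namely gene read counts that the authors divided by a DESeq2 size factor. Per the study's methods and processing notes, the authors aligned single-end reads to rn5 with TopHat2 2.1.1 and counted them per gene with HTSeq using strand, with all rat libraries in a single DESeq2 run. A further deposited column, a category and not a score, gives the authors' cluster of each gene. Because 100% of values were whole multiples of the smallest value of their library, within 0.01 of a read, reads were recovered. Genes averaging at least 10 normalized counts were tested, 14312 in all and both actins among them. After adding 1 and taking log2, limma 3.58.1 (R 4.3.3) was fitted to the 12 libraries together with a trended prior variance. Tests were two-sided, and p-values were adjusted by Benjamini-Hochberg over every gene tested. The log2 changes were of normalized counts plus 1, which understates those of low genes. The threshold was an adjusted p of 0.05. edgeR 4.0.16 (quasi-likelihood) and DESeq2 1.42.0 (Wald) on recovered reads were alternatives, and called 7862 and 7349 genes with PE, against 7899 with limma. Other alternatives were pseudocounts, filters, scalings, no trend, only the groups compared, a replicate block and each library left out. The fit was checked beforehand on reads simulated with known changes and the same dispersion in every gene and group. That check does not cover spreads that differ between groups, as those of the actins did. Ratios were tested with exact permutations in numpy 2.4.6, and figures were drawn with matplotlib 3.10.9. The genes, lists and tests were chosen with earlier results of these data known. Genes to be named were both actins, the 5 genes with the highest r with each, and members of lists of actin, sarcomere and marker genes. The lists could not be used, as 0 of the table's identifiers matched the 47357 RefSeq entries at hand.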

Additional observations from a re-analysis of the deposited data

Results flagged for a closer look

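The effect of PE differed between cells with and without THZ1 for both actins, by the test of the difference itself. The log2 interaction was -0.75 for *Acta1* (adjusted p = 0.00059, limma) and -0.91 for *Actc1* (adjusted p = 1.4e-05, limma), and 18.3% of the genes tested had a negative interaction called. All 3 libraries of each group with PE were above all 3 of the matching group without PE, in both genes and in both settings of THZ1, as was the case for 30.8% of tested genes without THZ1 and 21.8% with it. Over the settings that kept all libraries, the interaction lay between -0.75 and -0.64 for *Acta1* and between -0.91 and -0.80 for *Actc1*.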

How the results depend on the processing

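Of the 324 values recomputed under alternatives for 22 results, 323 kept their direction and their side of the threshold. The exception was *Actc1* in PE + THZ1 against THZ1 alone, which ranged from 0.24 to 0.35 with each library left out in turn and missed the threshold without PE + THZ1 replicate 3 (adjusted p = 0.070, limma). Over the settings that kept all libraries, its adjusted p was at most 0.033. The pairwise tests of the ratio are counted among these values but could not pass the threshold under any setting. Their side of it was thus fixed in advance and says nothing of stability. Equal library totals moved the rise with PE to 1.35 for *Acta1* and 1.11 for *Actc1*. With the replicate block, these rises were 1.44 and 1.20, and no call of either actin changed. Within replicate numbers, exact sign-flip permutations of the ratio gave p = 0.031 for PE and for THZ1, the smallest that 6 pairs allow. Libraries with the same replicate number had deviations from their group means with a mean r across genes of 0.033 over 18 pairs (-0.11 to 0.17), so the numbers were not taken to pair libraries, and 5 of the 12 libraries correlated best with one of their own number. The block moved the count of called genes with PE from 7899 to 8071. The planned gene lists were not run, as no identifier could be matched to a symbol, and the fit of only the groups compared gives no interaction. Counting error is small for both genes. The limits are 3 libraries per group, spreads that differ between groups, and an untested share of reads that may match both actins.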
